A study of Homo sapiens with 42 samples.

Results

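The collagen-modifying enzymes described here are 10 of the 60609 genes counted in each library: the catalytic α subunits of the collagen prolyl 4-hydroxylases (P4HA1, P4HA2 and P4HA3), the lysyl hydroxylases (PLOD1, PLOD2 and PLOD3) and the lysyl oxidases other than LOXL3 (LOX, LOXL1, LOXL2 and LOXL4). They were chosen by gene symbol as collagen-modifying enzymes known as HIF targets, with no measured value in the rule. Earlier results of these data were known when they were chosen. Polyadenylated RNA was sequenced from 786-O cells, a human clear cell renal carcinoma line. These cells lack functional VHL, so their own HIF-2α is stable in normal oxygen, and they have no functional HIF-1α, and all lines share that background. Of the 27 libraries of the first batch, 3 each came from unmodified (WT) cells, from 1 knock-in clone each of HIF-1β KIN (A21) and HIF-2α KIN (A31), whose endogenous protein carries a V5-Halo tag, and from 6 stable lines with a V5-Halo transgene under the weak L30 promoter. Those 6 transgenes were HIF-1α and HIF-2α, the single mutants HIF-2α R27E and HIF-1α R30E, and the double mutants HIF-1αDM (R170A and V191D) and HIF-2αDM (R171A and V192D). R30E and R27E lie in the DNA-binding domain, and the DM changes impair pairing with HIF-1β. Of the 15 libraries of the second batch, 3 each came from WT cells and from lines that carry HIF-1α, HIF-2α or a chimera. HIF-2α/1α joins the N-terminal structured domain of HIF-2α to the C-terminal intrinsically disordered region (IDR) of HIF-1α, and the reverse chimera is HIF-1α/2α. Every transgenic line still makes its own HIF-2α, and the label of the HIF-2αDM libraries names HIF-1α as the mutated protein, so the title was followed.

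Collagen chains are modified in the endoplasmic reticulum before they fold. Prolyl 4-hydroxylases add hydroxyl groups to proline, which hold the triple helix together at body temperature, and lysyl hydroxylases add them to lysine, which prepares the sites for sugar attachment and for crosslinks. Both enzyme families need iron, ascorbate and 2-oxoglutarate, as do the enzymes that mark HIF-α for destruction. Lysyl oxidases act outside the cell, where these copper enzymes turn lysine and hydroxylysine into aldehydes that crosslink collagen and elastin. HIFs are transcription factors made of an α subunit and HIF-1β, and P4HA1, PLOD2 and LOX are well known as genes that rise when oxygen is low.

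A library of the first batch held 42377599 to 101186554 counted reads, and one of the second held 76366799 to 109642159. Values are CPM, counts scaled to a common library size by edgeR's TMM method within a batch, and group values are means ± SD of 3 libraries. The batches differ in RNA extraction and library kit, so levels were compared only within a batch. A gene was called when its fold change was at least 2 and its adjusted p-value at most 0.01, in the quasi-likelihood test of edgeR, after Benjamini-Hochberg adjustment over the 23410 genes tested in the first batch or the 28724 tested in the second. The study's methods describe the libraries of a line as biological replicates. The labels do not say whether they came from separate cultures. The p-values rest on the spread between libraries within a line, estimated over all lines of the batch and moderated across genes. HIF1A, on which HIF-1α transgene reads fall, rose from 3.29 ± 0.295 CPM in WT cells of the second batch to 148 ± 5.46 in HIF-1α cells, 107 ± 0.775 in HIF-2α/1α cells and 108 ± 7.15 in HIF-1α/2α cells. EPAS1, which encodes HIF-2α, rose from 142 ± 8.93 CPM to 473 ± 7.14 in HIF-2α cells and 572 ± 35.1 in HIF-1α/2α cells, and stood at 231 ± 13.8 in HIF-2α/1α cells. A chimera holds only part of either gene, so these levels show that the transgenes were transcribed and are not comparable between a chimera and a full-length line. The α gene that was not introduced also stood above WT, EPAS1 at 184 ± 12.8 CPM in HIF-1α cells and HIF1A at 10.4 ± 1.55 in HIF-2α cells. The part of transgene level in the differences between lines was not tested. Of 7 markers of renal tubular carcinoma, PAX8, PAX2, CDH6, VIM, KRT8 and KRT18 were found in all 42 libraries, while CA9, itself a HIF-1α target, was at or under 3 counts in 20 of 27 libraries of the first batch and 3 of 15 of the second. Of the markers of fibroblasts, endothelium and leukocytes, DCN, PDGFRA, PECAM1, CDH5, PTPRC, CD3E and LYZ stayed at or under 0.115 CPM, and LUM reached 3.57 CPM.

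Among the 8 members with a RefSeq start in the table used (GRCh38.p14), the core letters of the hypoxia response element, ACGTG on either strand, lay between 250 bases before and 50 bases after the start in P4HA1 (1 copy), PLOD2 (2 copies) and LOX (4 copies), all before the start. LOX has 3 windows in that table and the others 1 each, and the window of the start farthest upstream was used. P4HA2, PLOD1, PLOD3, LOXL1 and LOXL4 had none in that window, and the variant GCGTG lay in PLOD1 (2 copies) and PLOD2 (1 copy). P4HA3 and LOXL2, which were also called higher in some lines, had no entry and could not be searched. Among all 27326 genes with such a window, 21.6% held ACGTG at least once and 8.97% held 2 or more copies, and 36.4% held GCGTG. The 7 stretches below are shown because they belong to the 3 members that rose most widely in the lines with functional HIF-α. Each is 25 bases written 5′ to 3′ on the gene's strand, and the capitals mark the core, which reads CACGT where it lies on the opposite strand. A CACGTG would count as 2 overlapping copies. A match describes letters only and does not show binding. In GENCODE 44 all but the LOX stretch farthest from the start overlap an exon of some longer transcript of their gene.
P4HA1, chr10:73096938-73096962, minus strand: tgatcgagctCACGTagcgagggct
PLOD2, chr3:146161370-146161394, minus strand: tgagcctccaCACGTagccgcaggc
PLOD2, chr3:146161316-146161340, minus strand: aacagtccagACGTGgggcccagga
LOX, chr5:122078430-122078454, minus strand: tccctgtgcaACGTGtctgggggga
LOX, chr5:122078361-122078385, minus strand: gtccgccttgCACGTttccaatcgc
LOX, chr5:122078343-122078367, minus strand: caatcgcattACGTGaacaaatagc
LOX, chr5:122078287-122078311, minus strand: aactttgcaaACGTGccagaaagtt

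**Figure D1:**
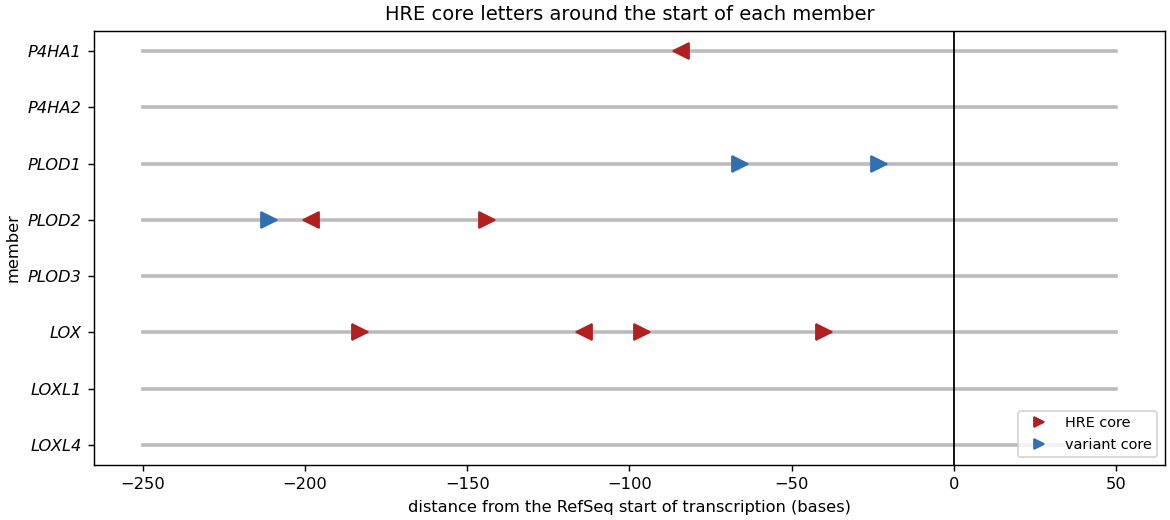
Position of the HRE core ACGTG (red) and the variant GCGTG (blue) from 250 bases before to 50 bases after the RefSeq start of 8 members (x axis, bases from the start). Arrowheads give the strand relative to the gene. P4HA1, PLOD2 and LOX hold 1, 2 and 4 red marks, all before the start, and the other 5 members hold none. P4HA3 and LOXL2 had no entry and are not drawn.

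As RPKM, which divides CPM by the length of the merged exons in kilobases, the levels in WT cells differed widely within each family. In the second batch, P4HA1 stood at 29.6 ± 1.98 RPKM and P4HA2 at 24.6 ± 0.211, while P4HA3 stood at 0.107 ± 0.0261. PLOD3 and PLOD1 held 44.2% and 40.7% of the summed PLOD level, and PLOD2 held 15.1%. In the first batch PLOD1 held 48.9%, PLOD3 46.8% and PLOD2 4.33%. LOXL2 held 89.1% of the summed level of the 4 lysyl oxidases, LOXL1 8.06% and LOX 2.79%, while LOXL4 was near 0. In the first batch LOXL2 held 90.7%. The order of P4HA1 and P4HA2 differed between the batches, P4HA2 standing at 23.9 ± 5.23 RPKM and P4HA1 at 11.1 ± 1.33 in the first. It also depended on the length used, because the exons of P4HA2 merged over all transcripts are much longer than its canonical transcript. With canonical lengths, an alternative chosen after seeing the data, P4HA1 in the second batch held 37.7% of its family instead of 54.4%, and PLOD2 held 26.6% instead of 15.1%.

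LOX, P4HA1 and PLOD2 were called higher with full-length HIF-1α and HIF-2α in both batches, with LOX moving most. In the first batch HIF-1α raised 3 of the 10 members (LOX, P4HA1 and PLOD2) beside 3.27% of all genes called higher, and HIF-2α raised 4 (LOX, P4HA1, PLOD2 and LOXL2) beside 3.78%. In the second batch HIF-1α raised 3 (LOX, P4HA1 and PLOD2, background 3.9%), HIF-2α/1α raised 3 (LOX, P4HA1 and PLOD2, background 2.98%), and HIF-2α raised 5 (LOX, P4HA1, PLOD2, LOXL2 and P4HA3, background 5.45%). HIF-1α/2α raised 3 (LOX, LOXL2 and P4HA3, background 5.1%) and lowered LOXL1, where 2.68% of all genes were called lower. The median log2 change from WT over the 10 members was 0.66 in HIF-1α cells and 0.60 in HIF-2α cells in the first batch, beside -0.03 and -0.09 over all genes tested. In the second batch it was 0.76 in HIF-1α cells, 0.41 in HIF-2α/1α cells, 0.87 in HIF-2α cells and 0.56 in HIF-1α/2α cells, beside medians of 0.03 to 0.08 over all genes. The comparisons of a batch share their WT libraries. In bulk RNA, a change in every cell and a change in the mix of cells cannot be told apart.

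**Figure D2:**
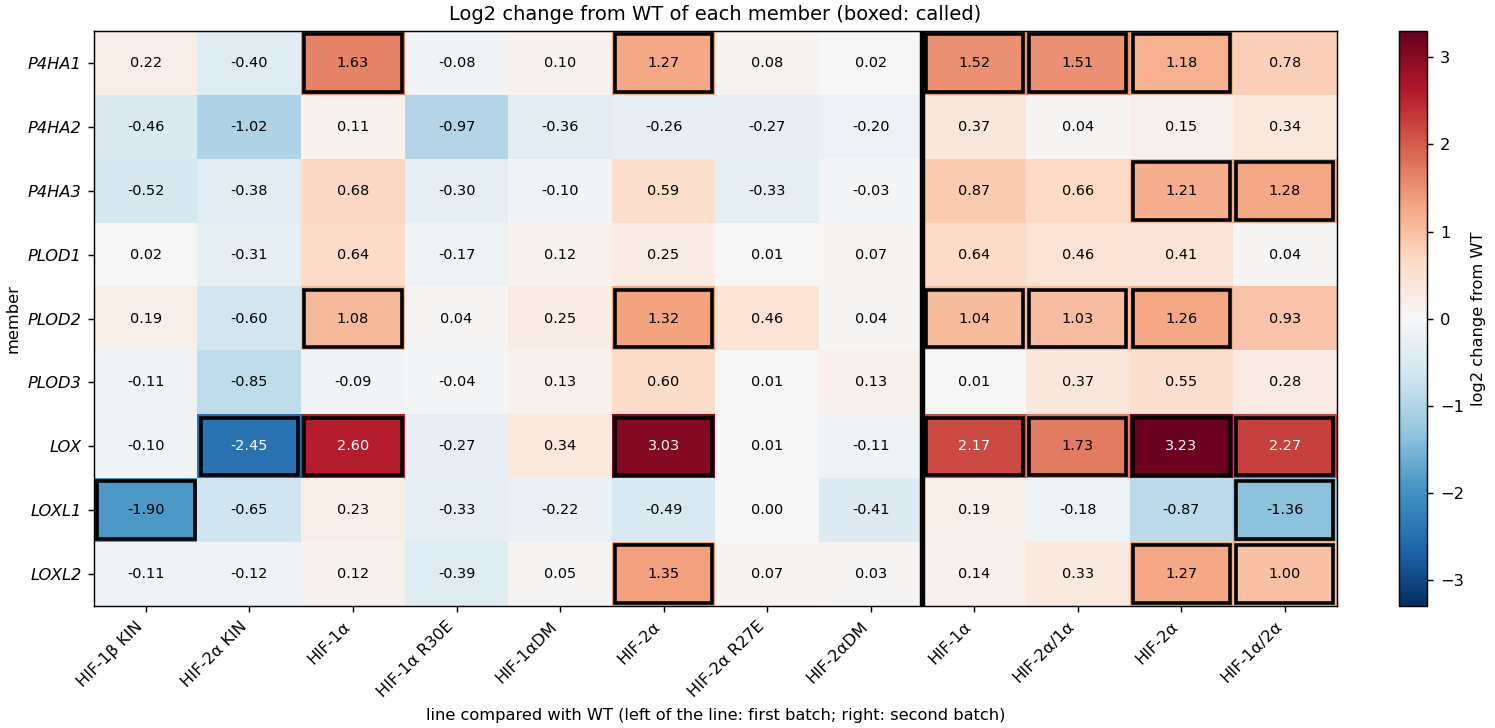
Log2 change from WT (numbers and colour) of 9 members (rows) in each line (columns), first batch left and second batch right of the thick line. Boxes mark calls (fold of at least 2 and adjusted p of at most 0.01). LOX is boxed in 7 columns, the 4 mutant columns hold no box, and LOXL4, with few reads, is left out.

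P4HA1 (chr10:73007217-73096974, minus strand, hg38), the most widely expressed of the α subunits, rose with every functional HIF-α. Its CPM in the second batch was 86.0, 90.6 and 98.1 in WT libraries, 273, 265 and 250.0 in HIF-1α cells, 267, 266 and 244 in HIF-2α/1α cells, 211, 211 and 195 in HIF-2α cells and 169, 159.8 and 137 in HIF-1α/2α cells. All 12 libraries of the transgenic lines lay above all 3 WT libraries. The 2 lines with the HIF-1α IDR were highest and close to each other, and HIF-1α/2α was the lowest of the 4. The log2 change from WT was 1.52 ± 0.06 (SE, adjusted p = 3.57e-24) in HIF-1α cells, 1.51 ± 0.06 (SE, adjusted p = 7.91e-24) in HIF-2α/1α cells and 1.18 ± 0.06 (SE, adjusted p = 8.35e-21) in HIF-2α cells. With HIF-1α/2α it was 0.78 ± 0.06 (SE, adjusted p = 1.07e-14), under the fold of 2. Between HIF-1α and HIF-2α/1α the log2 difference was -0.01, with a 95% interval of -0.13 to 0.11, whereas every other pair of lines differed at an adjusted p of 2.86e-05 or lower. P4HA1 had, in the first batch, 33.8, 30.7 and 38.8 CPM in WT libraries, 93.9, 117 and 106 in HIF-1α cells and 87.3, 98.5 and 64.9 in HIF-2α cells, with no overlap of either line with WT. These were log2 changes of 1.63 ± 0.18 (SE, adjusted p = 3.67e-07) and 1.27 ± 0.18 (SE, adjusted p = 8.56e-06). P4HA1's share of the per-length level of its family rose from 54.4% in WT cells to 76.8% in HIF-2α/1α cells in the second batch, and from 32.2% to 57.5% in HIF-1α cells in the first.

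P4HA2 (chr5:132190147-132295315, minus strand), a second α subunit, was not called in any line against WT. It had, in the second batch, 249 ± 2.14 CPM in WT cells, 322 ± 13.3 in HIF-1α cells, 311 ± 12.4 in HIF-1α/2α cells, 275 ± 13.0 in HIF-2α cells and 254 ± 11.2 in HIF-2α/1α cells. The 2 lines with the HIF-1α structured domain were highest, and the difference by structured domain was -0.25 ± 0.04 (SE, adjusted p = 3.14e-07), the only negative one among members whose structured-domain effect had an adjusted p of at most 0.01. In the first batch the library numbered 3 was the lowest of its line in all 9 lines, at 295, 241 and 189 CPM in WT cells and 148, 141 and 67.0 in HIF-2α KIN cells. The HIF-2α KIN clone lay below WT in every library, with a log2 change of -1.02 ± 0.31 (SE, adjusted p = 0.0328). It was called without the filter on low counts (-1.03, adjusted p = 3.19e-05) and, since libraries of the same number deviate together in these groups, with the replicate number as a block (-1.06, adjusted p = 3.51e-05). P4HA2 overlaps PDLIM4, SLC22A4 and its antisense gene, and reads were counted without strand.

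P4HA3 (chr11:74235801-74311640, minus strand), the least expressed α subunit, was counted in 9 to 128 reads per library. Its second-batch counts were 50, 39 and 34 in WT libraries, 97, 62 and 81 in HIF-2α cells and 114, 35 and 128 in HIF-1α/2α cells. One HIF-1α/2α library lay within the WT range and the other two far above it, so that this line had the widest spread. Both lines were called, at 1.21 ± 0.31 (SE, adjusted p = 0.00123) and 1.28 ± 0.30 (SE, adjusted p = 0.000607). Without WT replicate 2 the first of these stood at 1.09, adjusted p = 0.0121, and without HIF-1α/2α replicate 3 the second at 0.87, adjusted p = 0.0312, so that either call was lost. Log2 changes in HIF-1α cells (0.87, adjusted p = 0.0331) and in HIF-2α/1α cells (0.66, adjusted p = 0.134) did not pass. No line of the first batch passed, and HIF-2α stood at 0.59 ± 0.59 (SE, adjusted p = 0.574). PPME1, which overlaps P4HA3 on the other strand, had 64.0 ± 0.842 CPM in WT cells, 67.7 ± 3.95 in HIF-2α cells, 60.3 ± 2.11 in HIF-1α/2α cells and 141 ± 2.80 in HIF-1α cells, and its part in the counts on P4HA3 was not tested.

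**Figure D3:**
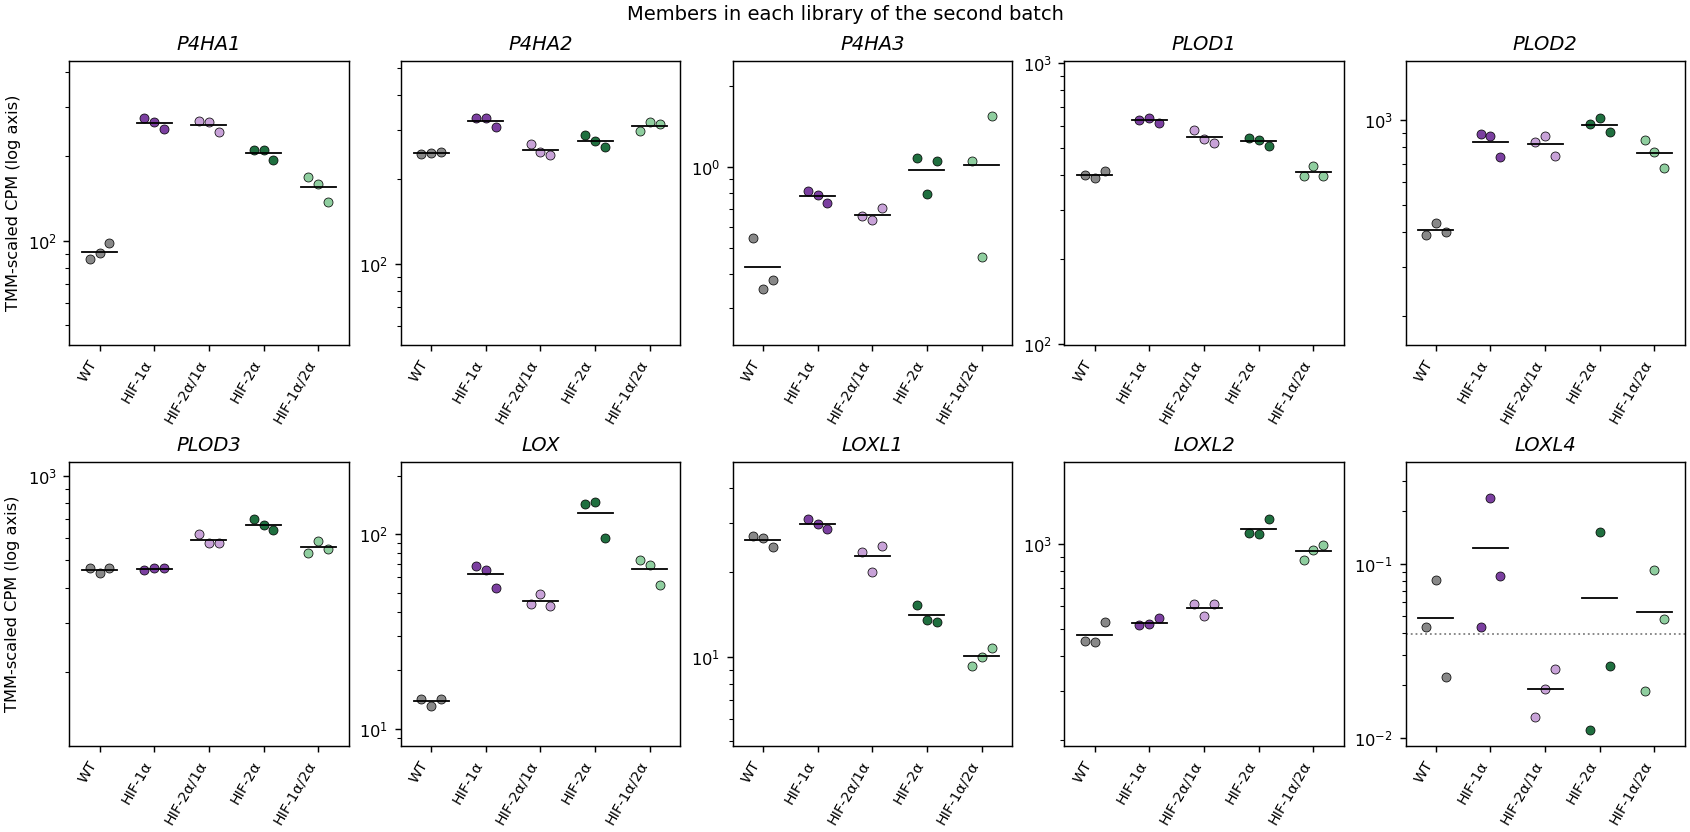
TMM-scaled CPM (log axis, range set per panel) of the 10 members in each library of the second batch. Points are libraries and bars are means of 3. The dotted line in the LOXL4 panel is the highest 3-count floor (0.0397 CPM). LOX and P4HA1 are higher in all 4 transgenic lines than in WT, LOXL2 is highest and LOXL1 lowest in the 2 lines with the HIF-2α IDR.

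Among the lysyl hydroxylases, PLOD2 moved most. PLOD2 (chr3:146035139-146163725, minus strand) acts on the ends of the collagen chains, where its product feeds stable crosslinks. It had, in the second batch, 388, 429 and 400.2 CPM in WT libraries, 891, 875 and 736 in HIF-1α cells, 835, 881 and 747 in HIF-2α/1α cells, 969.6, 1015 and 907 in HIF-2α cells and 850.5, 768 and 677 in HIF-1α/2α cells. All transgenic libraries lay above WT, and the HIF-2α libraries lay above all others. Log2 changes were 1.04 ± 0.07 (SE, adjusted p = 2.27e-17) in HIF-1α cells, 1.03 ± 0.07 (SE, adjusted p = 4.03e-17) in HIF-2α/1α cells and 1.26 ± 0.07 (SE, adjusted p = 1.09e-20) in HIF-2α cells, all called, and 0.93 ± 0.07 (SE, adjusted p = 3.18e-16) in HIF-1α/2α cells, under the fold of 2. The change fell under 2-fold for HIF-1α without its replicate 1 (0.99) and for HIF-2α/1α without WT replicate 1 (0.99) or its own replicate 2 (0.98), and HIF-1α/2α reached 1.01 without its replicate 3. The differences among both chimeras and HIF-1α did not pass (adjusted p of 0.248 to 0.99), that of HIF-1α/2α from HIF-1α having a 95% interval of -0.24 to 0.02, and HIF-2α exceeded HIF-1α by 0.23 ± 0.06 (SE, adjusted p = 0.00672). PLOD2 in the first batch stood at 174, 157 and 185 CPM in WT libraries, 333, 379.5 and 371 in HIF-1α cells and 453, 471 and 370.0 in HIF-2α cells, again with no overlap with WT. These were log2 changes of 1.08 ± 0.15 (SE, adjusted p = 1.11e-05) and 1.32 ± 0.15 (SE, adjusted p = 3.08e-07).

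PLOD1 (chr1:11934205-11975538, plus strand), which hydroxylates lysines within the helix, changed by less than 2-fold in every line. In the second batch it rose from 401 ± 11.9 CPM in WT cells to 626 ± 12.1 in HIF-1α cells, 546 ± 29.1 in HIF-2α/1α cells and 528 ± 18.2 in HIF-2α cells, with adjusted p-values of 1.01e-09 or lower. HIF-1α/2α stood at 409 ± 18.6 CPM, a log2 change of 0.04 with a 95% interval of -0.05 to 0.14. PLOD1 had, in the first batch, 690.3, 694 and 743 CPM in WT libraries and 1199.7, 1224 and 892 in HIF-1α cells, a log2 change of 0.64 ± 0.16 (SE, adjusted p = 0.0114). PLOD3 (chr7:101205977-101218420, minus strand), which also attaches sugars to hydroxylysine, had another order, highest in HIF-2α cells and near WT in HIF-1α cells. It had 464 ± 9.99 CPM in WT cells and 467 ± 5.43 in HIF-1α cells, and was higher in HIF-1α/2α cells (556 ± 28.4), HIF-2α/1α (593 ± 24.7) and HIF-2α (670.4 ± 29.5). The largest change, in HIF-2α cells, was 0.55 ± 0.05 (SE, adjusted p = 2.54e-13), and HIF-2α exceeded HIF-1α by 0.54 ± 0.05 (SE, adjusted p = 9.36e-13). PLOD3 had, in the first batch, 619, 673 and 905 CPM in WT libraries and 1069, 1051 and 1241 in HIF-2α cells, which did not overlap, and the log2 change was 0.60 ± 0.21 (SE, adjusted p = 0.0569). For PLOD3 the library numbered 3 was there the highest of its line in all 9 lines.

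LOX (chr5:122063195-122078413, minus strand), the founding lysyl oxidase, showed the largest changes of the 10 in every functional HIF-α line. It had, in the second batch, 14.3, 13.1 and 14.2 CPM in WT libraries and 68.9, 65.3 and 53.0 in HIF-1α cells. It had 43.8, 49.5 and 42.8 CPM in HIF-2α/1α cells, 144, 147 and 95.1 in HIF-2α cells and 73.7, 69.1 and 55.1 in HIF-1α/2α cells. Every transgenic library was above every WT library, and every HIF-2α library was above those of the other lines, with HIF-2α replicate 3 well below its 2 partners. Log2 changes from WT were 3.23 ± 0.11 (SE, adjusted p = 1.2e-27) in HIF-2α cells, 2.27 ± 0.11 (SE, adjusted p = 1.85e-22) in HIF-1α/2α cells, 2.17 ± 0.11 (SE, adjusted p = 2.38e-21) in HIF-1α cells and 1.73 ± 0.10 (SE, adjusted p = 8.65e-18) in HIF-2α/1α cells. The difference between HIF-1α/2α and HIF-1α did not pass (adjusted p = 0.54), and those of all other pairs did, at an adjusted p of 0.0035 or lower. LOX had, in the first batch, 10.2, 9.04 and 13.2 CPM in WT libraries, 57.6, 70.2 and 68.4 in HIF-1α cells and 83.3, 92.9 and 91.4 in HIF-2α cells, so that the 3 lines formed 3 separate ranges. These were log2 changes of 2.60 ± 0.21 (SE, adjusted p = 1.85e-09) and 3.03 ± 0.21 (SE, adjusted p = 6e-11), or 6.07-fold and 8.20-fold. SRFBP1 overlaps LOX on the other strand and moved the opposite way, from 13.6 ± 0.992 CPM in WT cells to 8.80 ± 0.809 in HIF-2α cells in the second batch.

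LOXL1 (chr15:73925989-73952137, plus strand), best known for crosslinking elastin, was the one member called lower in a line with a functional HIF-α transgene. It had, in the second batch, 26.9, 26.4 and 24.7 CPM in WT libraries, 30.8, 29.8 and 28.5 in HIF-1α cells, 23.5, 20.0 and 24.8 in HIF-2α/1α cells, 15.3, 13.5 and 13.3 in HIF-2α cells and 9.30, 9.98 and 10.8 in HIF-1α/2α cells. The 6 libraries with the HIF-2α IDR all lay below the 9 others. The log2 change was -1.36 ± 0.08 (SE, adjusted p = 1.45e-18) in HIF-1α/2α cells, which was called, and -0.87 ± 0.08 (SE, adjusted p = 1.47e-12) in HIF-2α cells, under the fold of 2. With HIF-1α it was 0.19 ± 0.08 (SE, adjusted p = 0.0703) and in HIF-2α/1α cells -0.18 ± 0.08 (SE, adjusted p = 0.0996). In the first batch the HIF-2α line had 31.1, 34.5 and 52.4 CPM against 54.9, 43.8 and 66.0 in WT libraries, and the ranges overlapped, with a log2 change of -0.49 ± 0.29 (SE, adjusted p = 0.292). There the library numbered 3 was the highest of its line in all 9 lines. LOXL1-AS1, the antisense gene that overlaps LOXL1 by 2260 bases, was also lower with the HIF-2α IDR. It went from 6.57 ± 0.0829 CPM in WT cells to 2.84 ± 0.182 in HIF-2α cells and 3.99 ± 0.187 in HIF-1α/2α cells. HIF-1α/2α was the lower of these lines for LOXL1 but the higher for LOXL1-AS1. In HIF-1α cells LOXL1-AS1 stood at 5.83 ± 0.666 CPM, below the WT mean, while LOXL1 stood above its own. Reads counted without strand cannot tell the genes apart where they overlap.

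LOXL2 (chr8:23296897-23425328, minus strand), which crosslinks collagen IV of basement membranes, rose with the HIF-2α IDR. It had, in the second batch, 451, 449 and 527 CPM in WT libraries, 513, 518 and 543 in HIF-1α cells, 609, 554 and 611 in HIF-2α/1α cells, 1095, 1086 and 1224 in HIF-2α cells and 876, 955 and 996 in HIF-1α/2α cells. The 6 libraries with the HIF-2α IDR lay above the 9 others. The log2 change was 1.27 ± 0.06 (SE, adjusted p = 7.96e-23) in HIF-2α cells and 1.00 ± 0.06 (SE, adjusted p = 2.69e-19) in HIF-1α/2α cells, and the second stands at the fold threshold and is under it (0.96 to 0.99) by median-ratio scaling, by DESeq2, without the filter on low counts, with only the groups compared in the fit, or without WT replicate 1 or 2 or HIF-1α/2α replicate 2 or 3. With HIF-2α/1α it was 0.33 ± 0.06 (SE, adjusted p = 1.27e-05) and in HIF-1α cells 0.14 ± 0.06 (SE, adjusted p = 0.0701). LOXL2 had, in the first batch, 939, 897 and 1145 CPM in WT libraries, 1008, 1109.5 and 1117 in HIF-1α cells and 2537, 2154 and 2986 in HIF-2α cells. HIF-2α stood apart from both, at 1.35 ± 0.18 (SE, adjusted p = 4.62e-06) against WT, while the HIF-1α change was 0.12 with a 95% interval of -0.24 to 0.49. LOXL2 overlaps ENTPD4 on its own strand and LOXL2-AS1 on the other.

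LOXL4 (chr10:98247690-98268194, minus strand), a relative of LOXL2, was counted in few reads, 48 at most in any library. Its first-batch counts were 5, 18 and 13 in WT libraries and 48, 34 and 37 in HIF-1α cells, the highest 3 of the series, and 1, 8 and 5 with HIF-1α R30E. The log2 difference of HIF-1α from WT was 2.04 ± 0.72 (SE, adjusted p = 0.0844) and from R30E 3.14 ± 0.77 (SE, adjusted p = 0.016), so neither was called. The second passed by DESeq2 (3.17, adjusted p = 0.000643) and without the filter on low counts (3.13, adjusted p = 0.00808). HIF-1α libraries of the second batch held 4, 22 and 8 reads and WT libraries 4, 9 and 2, which overlap, and the log2 difference was 1.27 ± 0.91 (SE, adjusted p = 0.379).

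**Figure D4:**
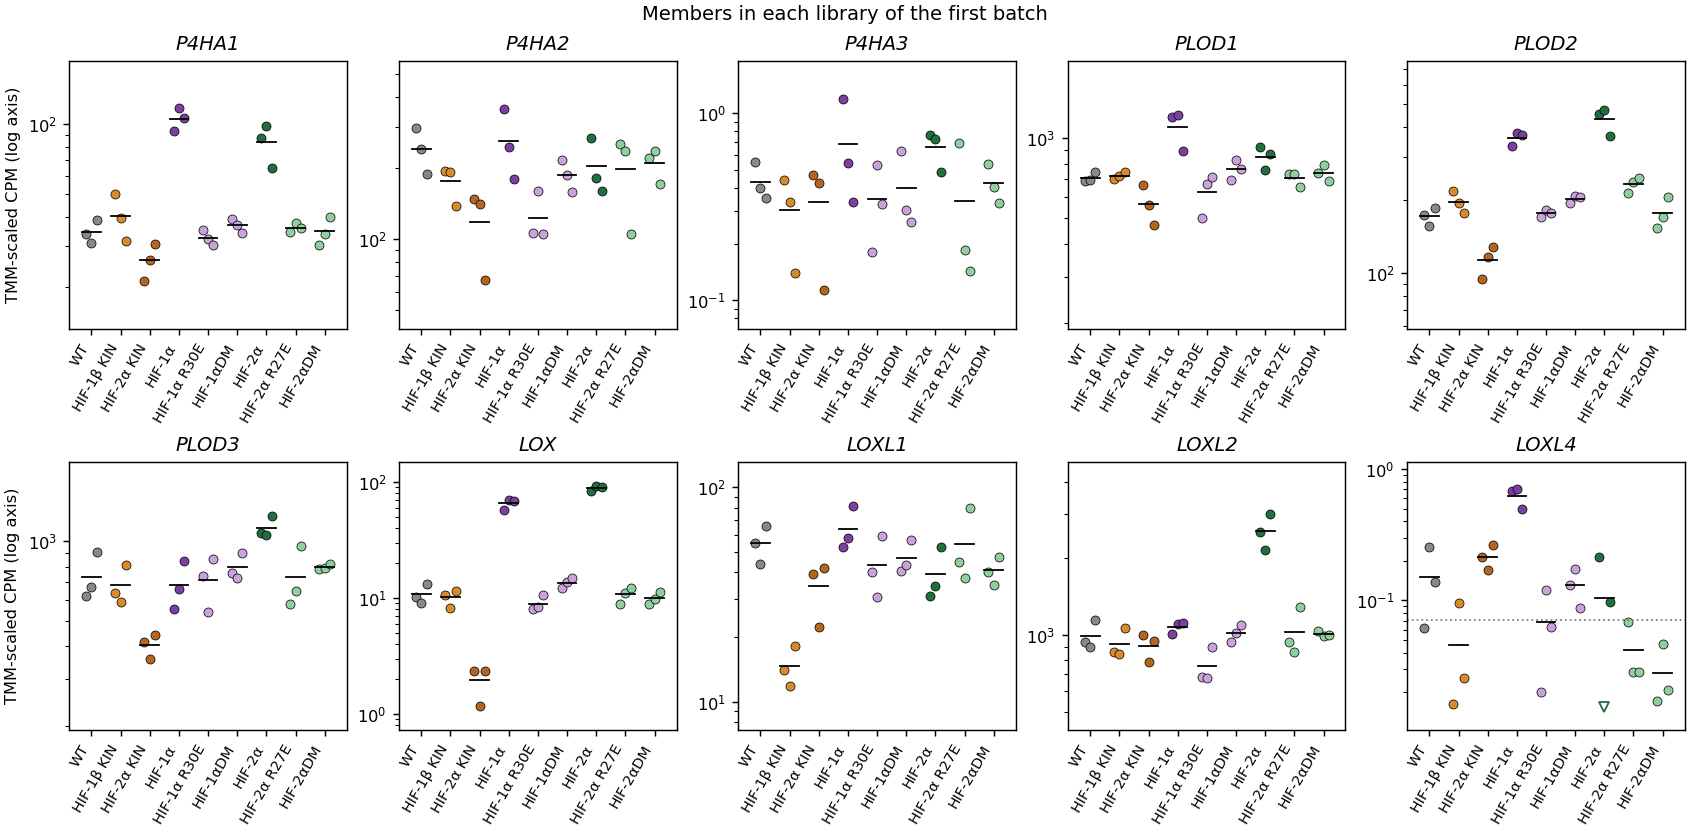
TMM-scaled CPM (log axis, range set per panel) of the 10 members in each library of the first batch. Points are libraries, bars are means of 3, the open triangle is a library with 0 counts and the dotted line the highest 3-count floor (0.0713 CPM). LOX, P4HA1 and PLOD2 are high in HIF-1α and HIF-2α cells and near WT with the 4 mutants, LOXL2 is high in HIF-2α cells, and LOXL1 is lowest in HIF-1β KIN cells and LOX in HIF-2α KIN cells.

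The mutants asked whether these changes need DNA binding and pairing with HIF-1β. Against WT, none of the 10 members was called with R30E or DM forms of HIF-1α or with R27E or DM forms of HIF-2α by edgeR's quasi-likelihood test or by DESeq2, where 2.61%, 0.457%, 0.496% and 0.474% of all genes were called in either direction. At an unadjusted p under 0.05 there were 2, 0, 2 and 1 members in that order. LOX had 8.95 ± 1.36 CPM with HIF-1α R30E, 13.6 ± 1.36 with HIF-1αDM, 10.7 ± 1.71 with HIF-2α R27E and 9.97 ± 1.15 with HIF-2αDM, beside 10.8 ± 2.12 in WT cells. The 95% intervals of its log2 change from WT reached at most 0.75 in either direction in these 4 lines (-0.07 to 0.75 with HIF-1αDM and -0.68 to 0.14 with HIF-1α R30E). The PLOD2 interval with HIF-2α R27E was 0.15 to 0.76 (adjusted p = 0.208), with all 3 libraries (213, 237 and 247 CPM) above WT. HIF1A stood at 45.2 ± 3.20 CPM in HIF-1α cells, 37.5 ± 4.09 with R30E and 33.3 ± 4.07 with HIF-1αDM, and EPAS1 at 673 ± 97.9, 836 ± 146 and 722 ± 77.9 CPM with HIF-2α, R27E and HIF-2αDM in that order. EPAS1 reads with both HIF-2α mutants were thus not below those with HIF-2α, and HIF1A reads with both HIF-1α mutants were lower than with HIF-1α. Such reads include the cells' own genes, and the part of transgene level was not tested. The other α gene differed too. EPAS1 stood at 342 ± 39.3 CPM in HIF-1α cells, 154 ± 32.4 with R30E and 170 ± 21.3 with HIF-1αDM, beside 217 ± 31.6 in WT cells. HIF1A stood at 13.7 ± 4.27 CPM in HIF-2α cells, 3.13 ± 0.795 with R27E and 2.86 ± 0.216 with HIF-2αDM, beside 3.62 ± 0.25 in WT cells.

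Compared directly, HIF-1α exceeded R30E for 3 members (LOX, P4HA1 and PLOD2, background 1.42% called higher) and HIF-1αDM for 2 (LOX and P4HA1, background 1.21%). HIF-2α exceeded R27E for 3 (LOX, P4HA1 and LOXL2, background 2.09%) and HIF-2αDM for 4 (LOX, P4HA1, LOXL2 and PLOD2, background 2.48%). The LOX differences were 2.87 ± 0.21 (SE, adjusted p = 4.93e-10), 2.27 ± 0.21 (SE, adjusted p = 4.52e-08), 3.03 ± 0.21 (SE, adjusted p = 1.49e-10) and 3.14 ± 0.21 (SE, adjusted p = 5.68e-11) in that order. P4HA1 differed by 1.71, 1.52, 1.19 and 1.25, with adjusted p-values of 3.02e-05 or lower. PLOD2 differed from HIF-1αDM by 0.83 ± 0.15 (SE, adjusted p = 0.000799) and from HIF-2α R27E by 0.86 ± 0.15 (SE, adjusted p = 0.000198), both under 2-fold. P4HA2 was higher in HIF-1α cells than with R30E by 1.08 ± 0.31 (SE, adjusted p = 0.048) and was called without the filter on low counts (1.08, adjusted p = 1.97e-05), where 5 members passed in this comparison, LOXL4 being the other one added. Between the functional lines of the first batch LOXL2 alone was called (0.935% of all genes higher), higher in HIF-2α cells by 1.23 ± 0.18 (SE, adjusted p = 4.55e-05).

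Each tagged clone had 1 member called against WT, and the clones were not tested against each other. In HIF-2α KIN cells EPAS1 RNA fell from 217 ± 31.6 to 91.7 ± 7.61 CPM. By western blot the paper reports tagged protein in this clone near the WT level, and by RNA-seq no significant change in expression profile. A link between EPAS1 RNA and the members was not tested. LOX fell in this clone from 10.2, 9.04 and 13.2 CPM to 2.32, 1.17 and 2.33. It was the one member called lower, at -2.45 ± 0.22 (SE, adjusted p = 8.26e-09), where 1.79% of all genes were called lower. Libraries of 7 members did not overlap between the groups, all of them lower in the clone, as for 26.1% of all genes in either direction, and the median change over the 10 was -0.50 beside -0.04 over all genes. PLOD3 changed by -0.85 ± 0.21 (SE, adjusted p = 0.00842) and PLOD2 by -0.60 ± 0.15 (SE, adjusted p = 0.00715), both under 2-fold. LOXL1, at 39.5, 22.3 and 42.1 CPM, was among the 7, with a log2 difference of -0.65 ± 0.29 (SE, adjusted p = 0.17). LOXL2, which the HIF-2α transgene raised, had a log2 difference of -0.12 with a 95% interval of -0.49 to 0.25. In HIF-1β KIN cells LOXL1 fell from 54.9, 43.8 and 66.0 CPM to 14.1, 11.8 and 18.1, with no overlap. It was again the one member called, at -1.90 ± 0.30 (SE, adjusted p = 0.000152), where 0.982% of all genes were called lower. LOXL1-AS1 fell from 3.82 ± 0.435 to 0.181 ± 0.0465 CPM there, at -4.39 ± 0.30 (SE, adjusted p = 8.74e-11), while LOX had a log2 difference of -0.10 (95% interval -0.51 to 0.31). LOXL3, a lysyl oxidase outside the 10 and followed with the extracellular partners, also fell in HIF-1β KIN cells (-2.64, adjusted p = 1.71e-06). Each knock-in is 1 clone, so the tag and the clone cannot be told apart.

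The 4 transgenic lines of the second batch allowed the IDR and the structured domain to be compared across both forms of the other. Each construct is represented by a single line, so construct and line cannot be told apart. Averaged over both structured domains, LOXL1 was lower with the HIF-2α IDR, with a log2 difference of -1.12 ± 0.06 (SE, adjusted p = 5.44e-21), the single member called, where 2.5% of all genes were called lower. Another 5 members had an IDR effect with an adjusted p of at most 0.01 but under 2-fold. LOXL2 was higher by 0.90 ± 0.04 (SE, adjusted p = 5.34e-23), LOX by 0.80 ± 0.07 (SE, adjusted p = 4.14e-13) and PLOD3 by 0.22 ± 0.03 (SE, adjusted p = 3.56e-07) with the HIF-2α IDR. P4HA1 had a log2 difference of -0.54 ± 0.04 (SE, adjusted p = 2e-14) and PLOD1 one of -0.32 ± 0.03 (SE, adjusted p = 8.81e-11). For PLOD2 the 95% interval was -0.03 to 0.16 and for P4HA2 -0.03 to 0.11. No member was called for the structured domain by edgeR's quasi-likelihood test or by DESeq2, where 1.04% of all genes were called in either direction, although 7 had an unadjusted p under 0.05. The structured-domain effects (HIF-2α minus HIF-1α) lay between -0.25 for P4HA2 and 0.31 for PLOD3, leaving out LOXL4. These are averages over both IDRs, and for LOX and LOXL1 both exchanges behind them had an adjusted p of at most 0.01 and opposite signs. Going from the HIF-1α to the HIF-2α domain, LOX changed by -0.44 ± 0.10 (SE, adjusted p = 0.0035) with the HIF-1α IDR and by 0.96 ± 0.10 (SE, adjusted p = 1.68e-10) with the HIF-2α IDR. The second was called without HIF-2α replicate 3 (1.13) or without HIF-1α/2α replicate 1 (1.05). LOXL1 changed by -0.37 ± 0.08 (SE, adjusted p = 0.00176) and by 0.49 ± 0.08 (SE, adjusted p = 1.03e-05). With all libraries in the fit, no member was called by edgeR or DESeq2 when the structured domain was exchanged with the HIF-1α IDR (0.543% of all genes called, 7 members at an unadjusted p under 0.05) or with the HIF-2α IDR (2.09% and 8 members).

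**Figure D5:**
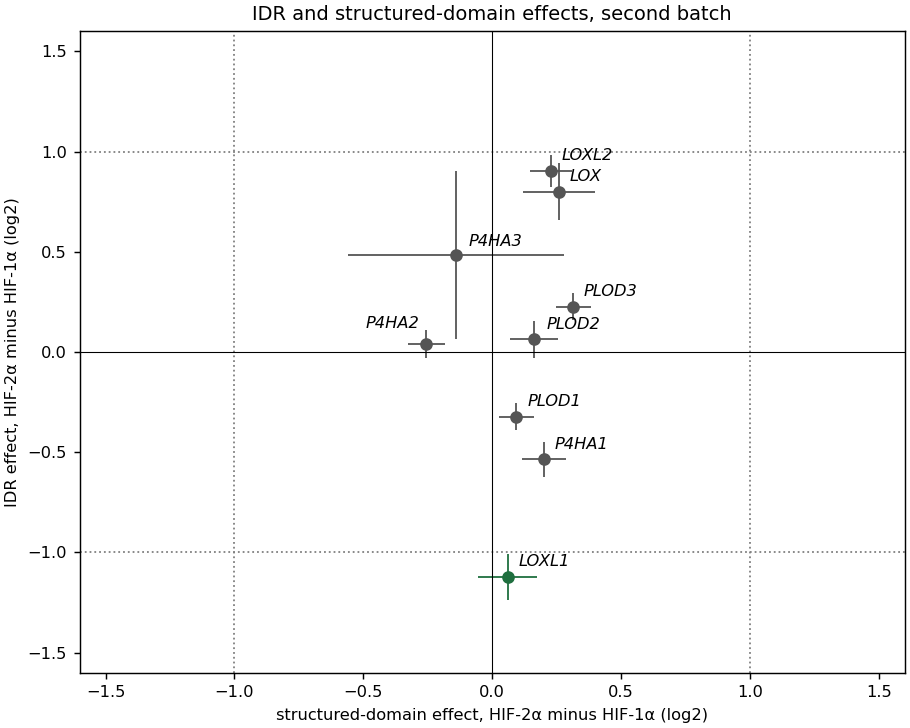
IDR effect (y axis) against structured-domain effect (x axis) of 9 members in the second batch, both as HIF-2α minus HIF-1α on the log2 scale. Points are estimates, bars are 95% intervals, dotted lines mark a 2-fold difference and green marks the called IDR effect. LOXL2 and LOX sit high at 0.90 and 0.80, LOXL1 sits low at -1.12, and all points lie between -0.25 and 0.31 on the x axis. LOXL4 is left out.

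The difference in LOX by IDR was larger between the lines with the HIF-2α structured domain than between those with the HIF-1α domain. Exchanging the HIF-1α IDR for that of HIF-2α on the HIF-2α structured domain (HIF-2α against HIF-2α/1α) raised LOX by 1.50 ± 0.10 (SE, adjusted p = 1.63e-16), the single member called, where 1.8% of all genes were called higher. The same exchange on the HIF-1α domain (HIF-1α/2α against HIF-1α) changed LOX by 0.10, with a 95% interval of -0.10 to 0.30. The difference between these exchanges was 1.40 ± 0.14 (SE, adjusted p = 3.73e-10), the one interaction called among the members, where 0.867% of all genes were called higher. LOXL1 went the other way, with a log2 change of -1.55 ± 0.08 (SE, adjusted p = 3.29e-20) on the HIF-1α domain, the single member called (2.89% of all genes lower), and of -0.69 ± 0.08 (SE, adjusted p = 2.36e-09) on the HIF-2α domain. Its interaction was 0.86 ± 0.11 (SE, adjusted p = 3.29e-07), under 2-fold. For LOXL2 the exchanges gave 0.86 and 0.94, and the interval of their difference was -0.08 to 0.24. PLOD1 and P4HA1 had interactions of 0.55 ± 0.07 (SE, adjusted p = 7.87e-08) and 0.41 ± 0.08 (SE, adjusted p = 0.000585), both being lowest in HIF-1α/2α cells among the transgenic lines. Between the full-length proteins, HIF-2α exceeded HIF-1α for LOX, by 1.06 ± 0.10 (SE, adjusted p = 5.14e-12), and for LOXL2, by 1.13 ± 0.06 (SE, adjusted p = 1.18e-20), beside 1.64% of all genes called higher. LOXL1 was lower, at -1.06 ± 0.08 (SE, adjusted p = 7.47e-15), beside 2.14%. The LOX difference fell under 2-fold, to between 0.95 and 0.97, without HIF-1α replicate 3, HIF-2α replicate 1 or HIF-2α replicate 2.

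HIF-1α and HIF-2α were expressed in both batches, and the changes from WT could be compared between them in a joint fit of 18 libraries. None of the 10 members was called as differing between batches by edgeR's quasi-likelihood test or by DESeq2, where 0.00374% of all genes differed for HIF-1α and 0% for HIF-2α. This test called almost no gene, so the lack of a call does not show that the responses were alike. For HIF-2α the SE of the difference was 0.165 for PLOD2 and 1.29 for LOXL4. One member had an unadjusted p under 0.05 for each transgene. These were LOX in HIF-1α cells (-0.59 ± 0.22, adjusted p = 0.896) and LOXL1 in HIF-2α cells (-0.52 ± 0.25, adjusted p = 0.465), both as second minus first batch in the joint fit. The median of this difference over all genes was -0.10 for HIF-1α and -0.05 for HIF-2α. In the separate fits of the first and second batch, LOX changed by 2.60 and 2.17 in HIF-1α cells and LOXL1 by -0.49 and -0.87 in HIF-2α cells. In the same separate fits LOXL2 changed by 1.35 and 1.27 in HIF-2α cells, PLOD2 by 1.32 and 1.26 and P4HA1 by 1.27 and 1.18. The joint fit gave differences of -0.23 for LOXL2, -0.20 for PLOD2 and -0.22 for P4HA1.

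Other genes of collagen making were followed as 4 lists, and the counts below are calls against WT, beside the shares of all genes called higher that are given above. Called lower in the second batch were 0.484% of all genes in HIF-1α cells, 0.508% in HIF-2α/1α cells, 2.13% in HIF-2α cells and 2.68% in HIF-1α/2α cells, and in the first batch 1.94% in HIF-2α cells. Of 16 partners in the endoplasmic reticulum, SERPINH1, the collagen chaperone HSP47, rose in HIF-1α cells in the second batch (1.06) and COLGALT2, which attaches galactose to hydroxylysine, rose in HIF-2α cells (2.53), each the single call of that list. By edgeR none was called in HIF-2α/1α or HIF-1α/2α cells, where 11 and 14 had an unadjusted p under 0.05. SERPINH1 in the first batch was the single call in HIF-1α cells (1.35), HIF-2α (1.20) and HIF-1α R30E (1.01), so the mutant with no member called raised it as well. Of 17 tested partners outside the cell in the second batch, 3 rose and 3 fell in HIF-1α cells, 3 and 2 in HIF-2α/1α cells, 3 and 3 in HIF-2α cells, and 4 and 4 in HIF-1α/2α cells. EFEMP2 (fibulin-4), which brings LOX to elastin, rose in all 4 lines, by 1.68, 1.15, 1.68 and 2.03 in that order. Log2 changes of FN1, the matrix protein fibronectin, were -2.20 in HIF-2α cells and -1.14 in HIF-1α/2α cells, and -2.29 in HIF-1β KIN cells of the first batch. ADAMTS2, which trims procollagen, changed by -1.42 in HIF-1α cells and -2.80 in HIF-1α/2α cells, and by -2.59 in HIF-2α KIN cells of the first batch. LOXL3 (1.07) and PCOLCE (1.00) rose in HIF-1α/2α cells. TLL1 changed by -1.03 in HIF-1α cells, -1.02 in HIF-2α/1α cells and -1.14 in HIF-2α cells. LUM, which is also on the fibroblast marker list, changed by -2.36, -2.02, -3.52 and -5.49 in the 4 lines. Its mean was 2.50 CPM in WT cells and 0.0577 CPM in HIF-1α/2α cells. That is near the 3-count floor of up to 0.0397 CPM, so the size of the last change is uncertain.

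Of 12 collagen and elastin substrates in the second batch, 5 rose in HIF-1α cells, 6 in HIF-2α/1α cells, 5 in HIF-2α cells and 6 in HIF-1α/2α cells. By edgeR 0 fell in the first 2 of these lines, with 2 lower at an unadjusted p under 0.05 in each, and 2 fell in each of the others. COL5A1, a fibril-forming chain, rose by 2.48 in HIF-1α cells, 1.67 in HIF-2α/1α cells and 5.20 in HIF-1α/2α cells. COL6A3, a chain of collagen VI, rose by 2.44, 1.87, 2.72 and 3.72 in the 4 lines in the same order. COL5A2 rose by 2.35, 2.96, 3.04 and 2.11, and COL1A1 rose by 1.13 in HIF-2α cells. The 2 that fell in each line with the HIF-2α IDR were COL4A1 and COL4A2, the basement membrane chains, with COL4A1 at -1.30 in HIF-2α cells and -1.65 in HIF-1α/2α cells. In the first batch 6 of 11 tested substrates rose in HIF-1α cells, and 5 rose and 2 fell in HIF-2α cells. COL5A2 also rose with HIF-1α R30E (1.65), HIF-1αDM (2.02) and HIF-2α R27E (2.52), and in HIF-1β KIN cells (1.72). By edgeR 2, 2, 1 and 0 of the 11 substrates were called higher with R30E, HIF-1αDM, R27E and HIF-2αDM in that order. Of all genes, 2.61%, 0.457%, 0.496% and 0.474% were called in either direction. With HIF-2αDM 3 were higher at an unadjusted p under 0.05. Median log2 changes over the 11 were 0.43, 0.93, 0.24 and 0.22, beside 1.56 in HIF-1α and 1.38 in HIF-2α cells. COL6A3 changed by -3.60 in HIF-2α KIN and -2.93 in HIF-1β KIN cells. Of 6 genes that supply ascorbate, iron or 2-oxoglutarate, none was called by edgeR in HIF-1α or HIF-2α/1α cells of the second batch, where 5 had an unadjusted p under 0.05 in each. SLC2A1, a glucose transporter that also carries oxidised ascorbate, rose in HIF-2α cells (1.53) and HIF-1α/2α (1.31), and IDH1, which makes 2-oxoglutarate, changed by -1.05 in HIF-1α/2α cells. TFRC, the transferrin receptor, changed by -1.47 in HIF-2α KIN cells. COLGALT2 and the first-batch values of SERPINH1 and of COL5A2 in the mutants were chosen after their values were seen. Every change named for these lists had an adjusted p-value of 0.000233 or lower, except those of TLL1, at 0.00914 or lower.

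Across the 14 group means, centred within each batch, the pattern most like that of LOX among 12461 well counted genes was that of ABCA2 (Pearson's r = 0.975), followed by PLOD2 (0.968) and UBA6-AS1 (0.964). PPP1R13L (0.976) and ABCA2 (0.976) were closest to PLOD2, STC1 (0.966) to P4HA1, CAMKK1 (0.985) to LOXL2, MACF1 (0.938) to LOXL1 and FAM43A (0.932) to P4HA3. These are descriptions over groups that share their WT libraries and batch.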

How the data were processed

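Polyadenylated RNA of 42 libraries (14 groups of 3) was sequenced in 2 batches. For each library the authors deposited raw read counts per gene: reads were mapped to hg38 with STAR (2.7 in the submitters' processing notes), only uniquely mapped reads were kept, and HTSeq counted them without strand over GENCODE 32, so overlapping genes on opposite strands share or lose reads. Positions and lengths here come from GENCODE 44, promoter sequence from RefSeq on GRCh38.p14. P4HA3 and LOXL2 had no promoter entry.

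Groups follow the sample titles. All groups of a batch entered 1 fit with edgeR 4.0.16 (TMM scaling, quasi-likelihood test, genes with a mean normalised count of at least 0.5) in R 4.3.3, at the fold of 2 and adjusted p of 0.01 that the study used, with Benjamini-Hochberg adjustment over all genes tested. Depth was 42377599 to 109642159 counted reads, and 3 counts, taken as the floor, correspond to 0.0271 to 0.0713 CPM. Intervals are 95% intervals of the fit. The 10 members and the gene lists were chosen with earlier results of these data known. Genes of the lists were named when called, not overlapping and at a mean normalised count of at least 50, up to 3 per list and direction, other names being marked. Alternatives were DESeq2 1.42.0, median-ratio factors, no filter, only the groups compared, a replicate block and leaving out each library. Same-numbered libraries had a mean correlation of deviations of 0.244 in the first batch, where 91 of 108 pairs exceeded 0.1, and of 0.00501 in the second. In HIF-2α KIN against WT all 3 pairs exceeded 0.1 (0.153, 0.183 and 0.432). Scripts were tested on simulated counts.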

Additional observations from a re-analysis of the deposited data

Results flagged for a closer look

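The effect of exchanging the IDR on LOX differed between the 2 structured domains, which was tested as an interaction. The log2 difference between the exchanges was 1.40 (adjusted p = 3.73e-10, edgeR), from 1.50 on the HIF-2α domain and 0.10 on the HIF-1α domain. LOX was called for this interaction in all alternatives run. Construct and line cannot be told apart here.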

How the results depend on the processing

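No call reversed among 2970 alternative values of single members: 2852 kept their direction and side of the thresholds, 16 lost the call, 11 gained it, and 91 were uncalled values that changed sign. Of 297 counts of called members, 290 stayed within 1.5 times. Members called in HIF-2α KIN against WT were 2 instead of 1 without the filter on low counts and with the replicate block, P4HA2 being added. In HIF-1α against HIF-1α R30E, 5 instead of 3 were called without the filter and with the replicate block (P4HA2 1.03 and LOXL4 3.16 with the block), but the numbers do not pair those libraries. The block changed no other call. In HIF-2α against HIF-1α of the first batch, DESeq2 called 2 instead of 1, adding LOXL4 (-2.61). Leaving out single libraries gave 0 to 1 called members, against 0, for the exchange of the structured domain with the HIF-2α IDR, which was LOX without HIF-2α replicate 3 (1.13) or without HIF-1α/2α replicate 1 (1.05). The cause was not tested. The same gave 2 to 3 members for HIF-1α, 2 to 3 for HIF-2α/1α, 4 to 5 for HIF-2α and 3 to 4 for HIF-1α/2α in the second batch, and left the counts of the first unchanged. Few reads were counted for LOXL4, at most 48 in a library, and for P4HA3, which limits the precision of their values.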
